A study of Canis lupus familiaris with 2 samples.

Results

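The genes described here are 42 genes of the lysosome: cathepsins and their inhibitor cystatin C, glycosidases and sulfatases, enzymes and carriers that handle lipids, membrane proteins including GPNMB, and the transcription factor TFEB. They were chosen by symbol, and a gene was used through probe sets that carry its symbol alone in the array annotation. Of the 42 genes, 39 had such a probe set, out of 15115 genes named on the array. Probe sets with the symbols CTSL, CST3 and IDUA alone were not found, so these genes were not analysed here. Of the 39, 36 were measured, meaning that the signal of the brightest probe set exceeded the floor of 1 array or both, and CTSZ, TPP1 and TFEB were at the floor on both. The floor is the median signal of an array, 19.0 for J3T-1 and 22.0 for J3T-2, and signals under it were set to it.

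The glioma subclones J3T-1 and J3T-2 come from 1 parental canine line and have similar genetic backgrounds, and they were studied because their invasion and angiogenesis differ. Both grew as untreated cultures in DMEM with 10% fetal bovine serum and antibiotics, and total RNA (250 ng) from each was hybridised to 1 Affymetrix canine array. There is 1 array per subclone and so no replicate. No test, p-value or replicate SD can be given, every value is a single measurement, and differences between the subclones cannot be told apart from differences between 2 cultures or 2 arrays. The number of arrays limits the precision, and the only error at hand is the spread between probe sets of the same gene, which is technical. Each line is a single subclone, so the values describe these lines and not glioma at large.

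Lysosomes are acidic organelles in which hydrolases break down protein, glycan and lipid delivered by endocytosis and autophagy. Most of the soluble enzymes reach them through mannose 6-phosphate receptors, a proton pump keeps the lumen acid, and transcription factors of the MiT/TFE family (TFEB, TFE3, MITF and TFEC) raise many lysosomal genes together. In tumours, cathepsins that leave the cell can cut matrix proteins, and GPNMB is a glycoprotein of melanosomes and lysosomes that is also found in gliomas.

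The lysosomal genes did not lie to 1 side as a group. Their median log2 ratio of J3T-2 over J3T-1 was 0.15, against 0.17 for all 9468 measured genes, so a general shift of the arrays towards J3T-2 is contained in every ratio below. By a size rule of at least 2-fold, 2 of the 36 lay towards J3T-1 (GPNMB and the collagen-degrading protease gene CTSK), or 5.56%, where 3.5% of all measured genes were. The rule also gave 4 towards J3T-2 (NPC2, ASAH1, ARSB and NAGLU), or 11.1%, where 7.37% of all measured genes were. Both shares rest on so few genes that they are not read as different from those of all genes. The remaining 30 lay within 2-fold, as did 8439 of all 9468 measured genes. Within 1.5-fold were 25 of the 36, against 6840 of the 9468, so this evenness is not particular to the lysosomal genes. With ratios centred on the median of all measured genes, CTSB joined the J3T-1 side and NAGLU left the J3T-2 side, which gave 3 and 3 of 36, against 4.65% and 5.04% of all genes. Just inside and just outside the rule were NAGLU at 2.06-fold and CTSB at 1.87-fold.

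**Figure D1:**
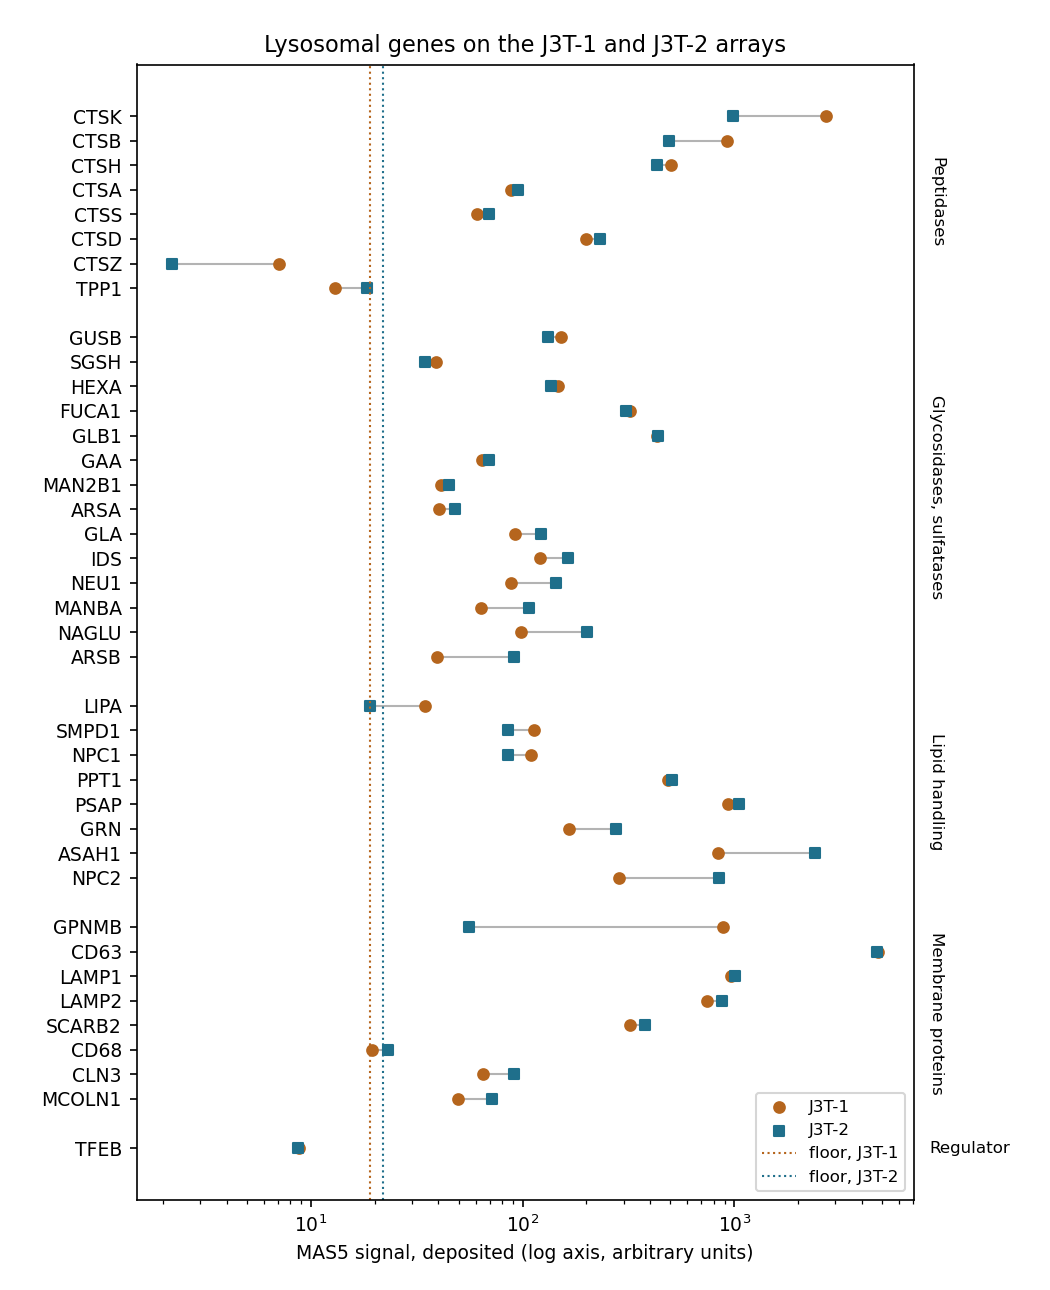
Deposited MAS5 signal (horizontal log axis, arbitrary units) of the probe set that stands for each of the 39 genes with a probe set (the brightest after the floor, or 1 of those tied at it), circles for J3T-1 and squares for J3T-2, 1 array each, with dotted lines at the floors of 19.0 and 22.0. GPNMB has the longest line, from 880.7 in J3T-1 to 55.9 in J3T-2, while most pairs nearly touch and CTSZ, TPP1 and TFEB lie left of both floors. Signals of different genes come from different probes and are not compared.

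GPNMB gave 880.7 on the J3T-1 array against 55.9 on that of J3T-2, a 15.8-fold difference towards J3T-1 (log2 ratio -3.98). The J3T-2 signal was above the floor, so this fold is not a bound. GPNMB ranked 8 of 9468 measured genes when ordered from the J3T-1 side, bounds included, and no other gene of the 42 came near that difference. It rests on a single probe set of a kind (_s_at) that can match several transcripts, and no other probe set was at hand to set beside it. Among the remaining membrane proteins none was 2-fold apart.

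LAMP1 and LAMP2, the glycoproteins that line the lysosomal membrane, were close to equal. LAMP1 read 966.2 on the J3T-1 array and 1010.1 on the J3T-2 array (values below keep that order), and LAMP2 747.4 and 871.6. The 3 probe sets of LAMP2 above the floor ran from a log2 ratio of -0.003 to 0.31, that is on both sides of 0. CD63, a tetraspanin of late endosomes and exosomes, was as even, at 4791.3 and 4713.6 (log2 ratio -0.02, and -0.07 by its other probe set). SCARB2, the receptor that carries glucocerebrosidase to the lysosome, had 323.3 and 380.4. The largest ratios towards J3T-2 in this class belonged to MCOLN1, a calcium channel of the lysosome, with 49.6 and 71.5 (1.44-fold), and to CLN3, the membrane protein mutated in juvenile Batten disease, with 65.1 and 90.8 (1.39-fold). All 3 probe sets of CLN3 were higher in J3T-2, with log2 ratios of 0.37 to 0.55. CD68, a macrophage glycoprotein, was barely above the floor at 19.5 and 23.0. The class of 8 membrane proteins had a median log2 ratio of 0.23, and GPNMB stood apart from the other 7, whose ratios ran from -0.02 to 0.53.

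Of the 10 peptidase genes (cathepsins, TPP1 and cystatin C), 6 were measured, and their median log2 ratio was -0.05, which is -0.22 from that of all genes. CTSK, the cathepsin by which osteoclasts degrade bone collagen, had signals of 2705.9 and 983.7 (2.75-fold higher in J3T-1). Its second probe set gave 1619.8 and 584.6, and the log2 ratios of both, -1.46 and -1.47, differed by less than the typical spread. That spread is an SD of 0.26 over 4580 genes with more than 1 probe set exceeding both floors, and 0.20 over the 21 such genes of the lysosomal set. CTSB, a broadly expressed cysteine protease, had signals of 923.0 and 492.7 (1.87-fold higher in J3T-1), and 269.9 and 135.7 by its other probe set (log2 ratio -0.99). Both cysteine proteases were thus higher in J3T-1 by each of their probe sets.

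The other cathepsins differed little. CTSH, an aminopeptidase, had signals of 500.7 and 430.7 (1.16-fold higher in J3T-1). CTSS, a protease of antigen-presenting cells, had signals of 60.7 and 69.7 (log2 ratio 0.20). The genes CTSK and CTSS are direct neighbours in the dog gene order, with 0 protein-coding genes between them, yet their ratios were -1.46 and 0.20. CTSA, the serine carboxypeptidase that protects NEU1 and GLB1, had 87.7 and 94.9, and CTSD, the main aspartic protease of lysosomes, had 198.7 and 232.6. For these last genes the direction depended on the probe set: CTSA gave log2 ratios of 0.11 and -0.22, and CTSD of 0.23 and -0.47. CTSZ (7.1 and 2.2) and TPP1, a tripeptidyl peptidase (13.0 and 18.4), were at the floor on both arrays, so no ratio is given.

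**Figure D2:**
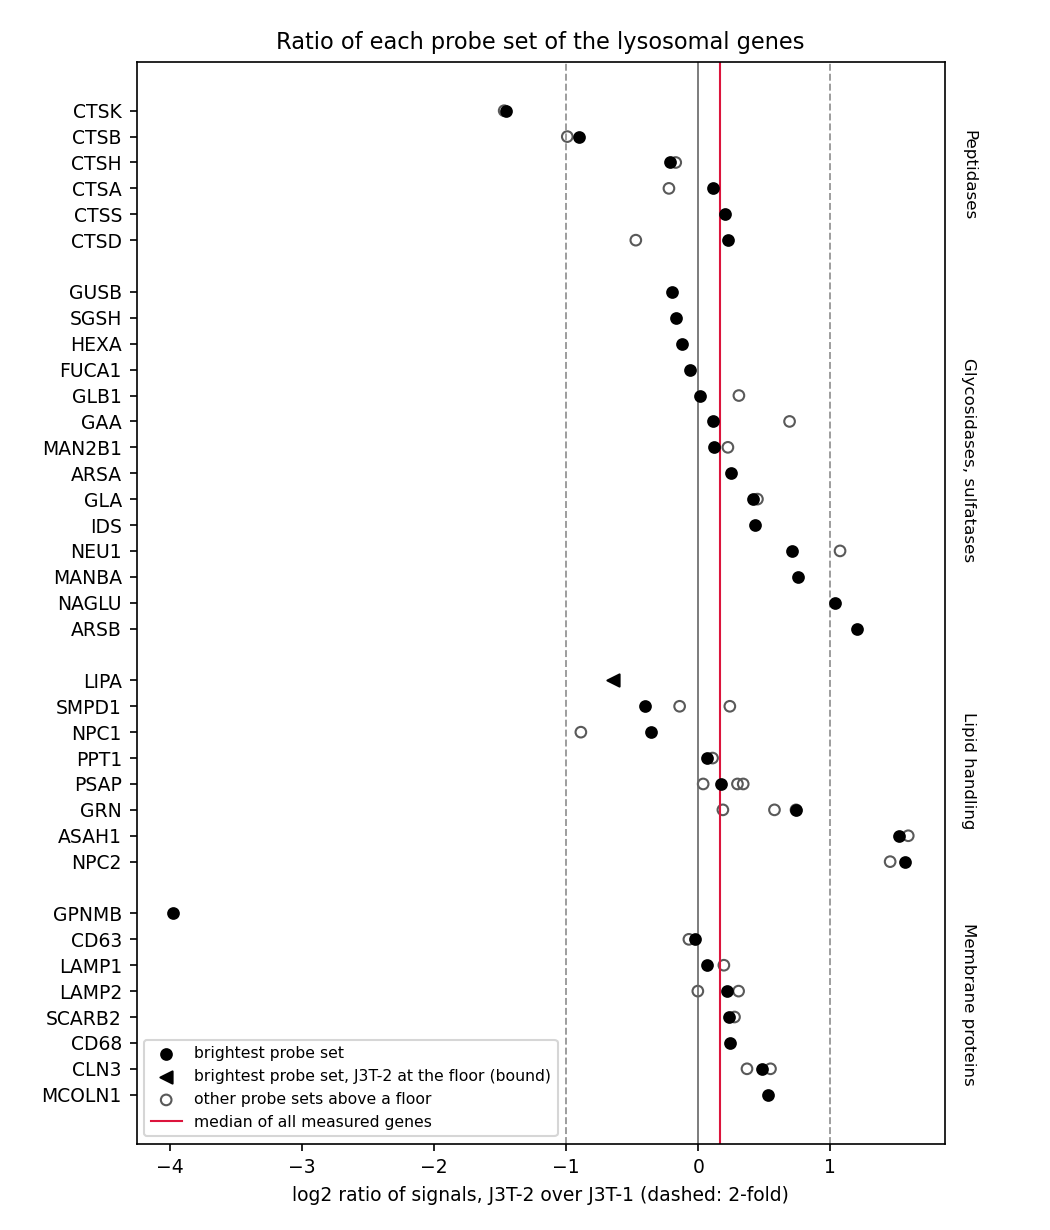
Log2 ratio of J3T-2 over J3T-1 for each probe set of the 36 measured genes, filled for the brightest probe set and open for others above the floor on at least 1 array, with dashed lines at 2-fold and a red line at 0.17, the median of all measured genes. The triangle of LIPA is a bound because J3T-2 was at its floor. GPNMB lies at -3.98, CTSK and CTSB left of most genes, and NPC2, ASAH1, ARSB and NAGLU right of the 2-fold line.

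Glycosidases and sulfatases were the largest class, with 14 of 15 genes measured. None passed 2-fold towards J3T-1, against 3.5% of all genes, and 2 did so towards J3T-2 (14.3%, against 7.37%). The median log2 ratio of 0.19 was close to that of all genes. ARSB, the sulfatase that acts on dermatan and chondroitin sulfate, had signals of 39.5 and 90.8 (2.3-fold higher in J3T-2). NAGLU, an N-acetylglucosaminidase of heparan sulfate breakdown, had 98.1 and 201.7 (2.06-fold, towards J3T-2 as well). Each rests on 1 probe set, and the J3T-1 signal of ARSB is little above the floor.

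Other enzymes of glycosaminoglycan breakdown did not share that difference. IDS, the iduronate sulfatase, had signals of 121.2 and 163.4 (1.35-fold higher in J3T-2). SGSH, which removes sulfate from heparan sulfate, had 38.9 and 34.6 (log2 ratio -0.17), and the beta-glucuronidase GUSB had 151.4 and 132.0 (log2 ratio -0.20). These 5 measured genes of the route, grouped after their values were seen, ran from -0.20 to 1.20.

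Of the enzymes that trim glycoproteins and glycolipids, NEU1, MANBA and GLA were higher in J3T-2 by less than 2-fold and GLB1 was close to even by the brightest probe set. NEU1, the lysosomal sialidase, had signals of 88.4 and 144.4 (1.63-fold higher in J3T-2), and its second probe set gave 47.0 and 99.0, past 2-fold at a log2 ratio of 1.07. MANBA, the beta-mannosidase, had 63.4 and 107.2 (1.69-fold higher in J3T-2). GLA, the alpha-galactosidase missing in Fabry disease, had 91.6 and 122.4, and its probe sets gave log2 ratios of 0.42 and 0.45. GLB1, the beta-galactosidase that forms a complex with NEU1 and CTSA, had 429.8 and 434.8 (log2 ratio 0.02, and 0.31 by the other probe set). The 3 genes of that complex therefore had log2 ratios of 0.71 (NEU1), 0.02 (GLB1) and 0.11 (CTSA).

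The remaining glycosidases and the sulfatase ARSA lay between log2 ratios of -0.12 and 0.25. HEXA, a subunit of beta-hexosaminidase, had signals of 147.3 and 135.6, and the fucosidase gene FUCA1 had 322.4 and 308.7. GAA, the acid alpha-glucosidase of glycogen breakdown, had 64.0 and 69.3, and its second probe set, at the floor in J3T-1, read 30.7 in J3T-2. MAN2B1, the alpha-mannosidase, had 41.2 and 44.8, and ARSA, which acts on sulfatide, 40.3 and 47.9. These low signals leave MAN2B1 and ARSA little above the floor.

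Lipid handling held the largest differences towards J3T-2. NPC2, the soluble cholesterol carrier of the lysosome, had signals of 284.4 and 844.7 (2.97-fold higher in J3T-2), and its second probe set gave 271.5 and 744.0 (log2 ratio 1.45). ASAH1, the acid ceramidase, had signals of 842.7 and 2416.0 (2.87-fold higher in J3T-2), and 566.4 and 1707.0 by the second probe set (log2 ratio 1.59). In both genes the probe sets differed by far less than the arrays did.

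Of the other genes in this class, NPC1, SMPD1 and LIPA were not higher in J3T-2 by the brightest probe set. NPC1, the membrane protein to which NPC2 hands cholesterol, had signals of 109.6 and 85.4 (1.28-fold higher in J3T-1), and its second probe set gave 67.6 and 36.5 (log2 ratio -0.89). SMPD1, the acid sphingomyelinase that makes the ceramide ASAH1 cleaves, had 113.2 and 85.5 (log2 ratio -0.40), but its 3 probe sets ran from -0.40 to 0.24. LIPA, which frees cholesterol from its esters, had 34.4 in J3T-1 and 19.0, under the floor, in J3T-2, at least 1.56-fold higher in J3T-1. NPC1 and LIPA thus lay on the other side from NPC2, and SMPD1 had no settled direction. With the floor at the 75th percentile, which replaces their J3T-2 signals, NPC1 turned to 0.14 and SMPD1 to 0.094. No direction can be read for these 2 genes under that setting.

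PSAP, the precursor of the saposins that help sphingolipid hydrolases, had signals of 935.6 and 1052.5, and its 4 probe sets gave log2 ratios of 0.04 to 0.34. GRN, whose product progranulin is cut into granulins in lysosomes, had 165.5 and 276.3 (1.67-fold higher in J3T-2), with a range of 0.19 to 0.74 in log2 over 4 probe sets. PPT1, a thioesterase that removes palmitate from proteins, had 485.4 and 509.5, which is close to even. The median of the 8 genes was 0.12, although single genes ran from -0.64 to 1.57.

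Over the whole set, 21 genes had at least 2 probe sets exceeding both floors, and in 17 of them all such probe sets pointed the same way. The matching share over all genes is not at hand, so this count is not read as a result about the set. The 4 others were CTSA, CTSD, SMPD1 and LAMP2, all within 1.5-fold by the brightest probe set. Among the 6 genes past 2-fold, CTSK, NPC2 and ASAH1 had a second probe set that was past 2-fold in the same direction, while GPNMB, ARSB and NAGLU had 1 probe set each.

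The ratios of neighbouring genes were set beside those of the lysosomal genes. Dog gene order was taken from the assembly UU_Cfam_GSD_1.0, and 33 of the 36 genes could be placed. The 20 nearest measured genes around NAGLU all had ratios above 0, with a median of 0.67, and the 20 around GRN likewise, with a median of 0.77. NAGLU and GRN lie on the same chromosome, as do SGSH and GAA, and its 573 measured genes had a median of 0.58. Relative to these neighbours NAGLU stood at 0.37 and GRN at -0.03. CD63, with a ratio of -0.02, had 13 neighbours, since fewer measured genes lie on 1 side of it, at a median of 0.73. The neighbours of GPNMB had a median of -0.46, and those of CTSK 0.17, of NPC2 0.10, of ASAH1 0.32 and of ARSB 0.22. Relative to them the log2 ratio was -3.52 for GPNMB, -1.63 for CTSK, 1.47 for NPC2, 1.20 for ASAH1 and 0.98 for ARSB. By the same 2-fold rule on these relative ratios, 2 of 33 genes lay on each side, against 4.6% (J3T-1) and 4.78% (J3T-2) of the 8951 placed genes. The part of the neighbourhood in the ratios of NAGLU and GRN was not tested.

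**Figure D3:**
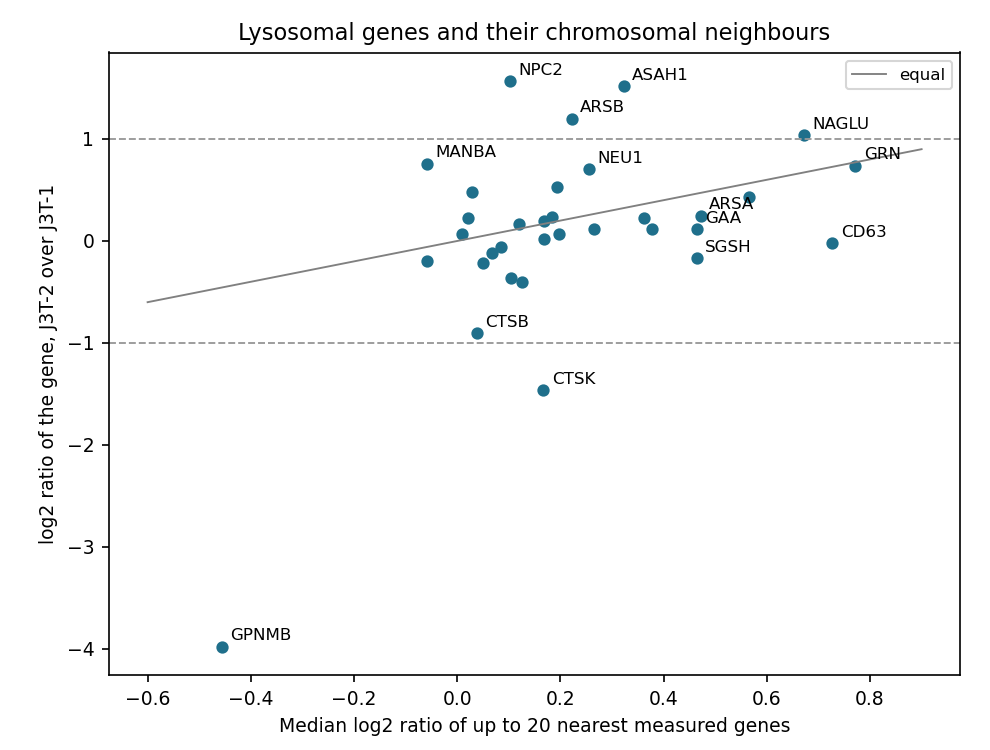
Log2 ratio of J3T-2 over J3T-1 of each of the 33 placed genes (vertical) against the median log2 ratio of its nearest measured genes (horizontal; 20 genes, or 13 to 18 for CD63, GUSB, LAMP1 and SCARB2, which have fewer on 1 side), with a line where both are equal and dashed lines at 2-fold. GRN lies near the line of equality, NAGLU is 0.37 above it, and GPNMB, CTSK, NPC2 and ASAH1 are more than 1 away from it.

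TFEB was at the floor on both arrays by both of its probe sets (8.8 and 8.7, and 11.8 and 18.2), so it has no ratio. Of its relatives, TFE3 had signals of 128.8 and 187.6 (1.46-fold higher in J3T-2, log2 ratio 0.18 by the other probe set). MITF had 102.0 and 71.6 (1.42-fold higher in J3T-1), and all its 4 probe sets above the floor on at least 1 array were higher in J3T-1, with log2 ratios of -0.13 to -0.77, the smallest of them a bound. TFEC was at the floor on both arrays. Neither of the measured factors, TFE3 and MITF, was 2-fold apart.

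Beyond the 42 genes, 127 further genes of lysosomal enzymes, membrane proteins, the proton pump, enzyme sorting, nutrient sensing and protease inhibitors were examined, and 93 were measured. By the 2-fold rule 4 of these lay on the J3T-1 side (4.3%) and 7 on the J3T-2 side (7.53%), near the shares of all genes, and the median log2 ratio was 0.11. The 6 lists differed little at their medians, apart from the 2 measured inhibitors.

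In the list of other lysosomal enzymes, 3 of 23 measured genes passed 2-fold in each direction (13.0%), against 3.5% of all genes towards J3T-1 and 7.37% towards J3T-2, and nothing is read from so few genes. CTSC, the dipeptidyl peptidase that activates serine proteases of leukocytes, read 136.0 on the J3T-1 array and 14.6, under the floor, on the J3T-2 array. That is a difference of at least 6.18-fold, by its only probe set above the floor on an array. CTSF, another cysteine cathepsin, had 150.2 and 37.6 (3.99-fold higher in J3T-1), while its other probe sets above the floor gave log2 ratios from -0.44 to -1.82, the last a bound. On the J3T-2 side, AGA, which cuts the link between asparagine and glycans, had 282.3 and 1167.6 (4.14-fold, log2 ratio 2.16 by its other probe set). SMPDL3A, a phosphodiesterase related to SMPD1, had 12.4, under the floor, and 111.8, a difference of at least 5.88-fold, with a bound of 2.58-fold from the other probe set. FUCA2 (2.05-fold higher in J3T-1) and EPDR1 (2.08-fold higher in J3T-2) complete the count and were named after their values were seen.

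With these genes, cysteine cathepsins can be read side by side. Of 10 listed, CTSL and CTSV had no probe set under their symbols alone and CTSZ was at the floor on both arrays. The ratio of CTSC is a bound. Of the 7 measured ones (CTSB, CTSC, CTSF, CTSH, CTSK, CTSO and CTSS), 6 had ratios below 0, and 3 passed 2-fold towards J3T-1 against 0 towards J3T-2, with a median log2 ratio of -0.91. Over all measured genes the shares were 3.5% and 7.37%, 3263 of 9468 had ratios below 0, and the median was 0.17. CTSO had signals of 41.2 and 33.7, and CTSS was the gene on the other side. Its ratio stayed above 0 in 6 of 8 alternatives and turned to -0.0083 under quantile normalization and -0.0056 under loess. This grouping was drawn up after the values were seen, and it is a description of these arrays. In the list of protease inhibitors, which is not limited to inhibitors of cysteine cathepsins, 2 genes were measured. CSTB, or cystatin B, had 2327.3 and 1980.5 (log2 ratio -0.23), and SERPINB1 had 552.1 and 368.3 (log2 ratio -0.58).

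Most genes of the proton pump and the sorting machinery lay within 2-fold, as did most of all measured genes. Among 16 measured V-ATPase subunits, ATP6V1H had signals of 270.6 and 655.4 (2.42-fold higher in J3T-2) and ATP6V0A1 had 103.4 and 215.2 (2.08-fold, with 2.68-fold and 2.98-fold from its further probe sets), and 0 passed 2-fold towards J3T-1. The 2 subunits towards J3T-2 are 12.5% of those measured, against 7.37% of all genes, and nothing is read from so few. ATP6V0C, part of the membrane ring of the pump, had 995.2 and 553.2, a log2 ratio of -0.85, so subunits of 1 complex lay on both sides. In sorting, IGF2R, the large mannose 6-phosphate receptor, had 119.5 and 55.3 (2.16-fold higher in J3T-1, with log2 ratios of -0.84 and -1.38 by its other probe sets). It was the 1 gene of 18 past 2-fold (5.56%, against 3.5% of all genes towards J3T-1). M6PR, the small receptor of the same ligand, had 786.6 and 638.1 (log2 ratio -0.30).

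In nutrient sensing at the lysosome, FLCN, or folliculin, which controls where TFE3 and TFEB reside, had 118.3 and 241.8 (2.04-fold higher in J3T-2), with log2 ratios of 1.12 and 0.73 by its other probe sets. FNIP2, its binding partner, had 20, close to the floor, and 51.5 (2.57-fold, but with a bound of only 1.24-fold from its other probe set). The 18 other measured lysosomal membrane proteins held no gene past the 2-fold rule, which 3.5% (J3T-1) and 7.37% (J3T-2) of all genes passed. The extremes were TMEM192 at a log2 ratio of -0.99 and TPCN2, a lysosomal ion channel gene, at 0.99, which is a bound because its J3T-1 signal was under the floor (18.3 and 37.8). Centred on the median of all genes, FLCN, ATP6V0A1 and EPDR1 come under 2-fold, while ATP6V0C and TMEM192 pass it towards J3T-1.

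**Figure D4:**
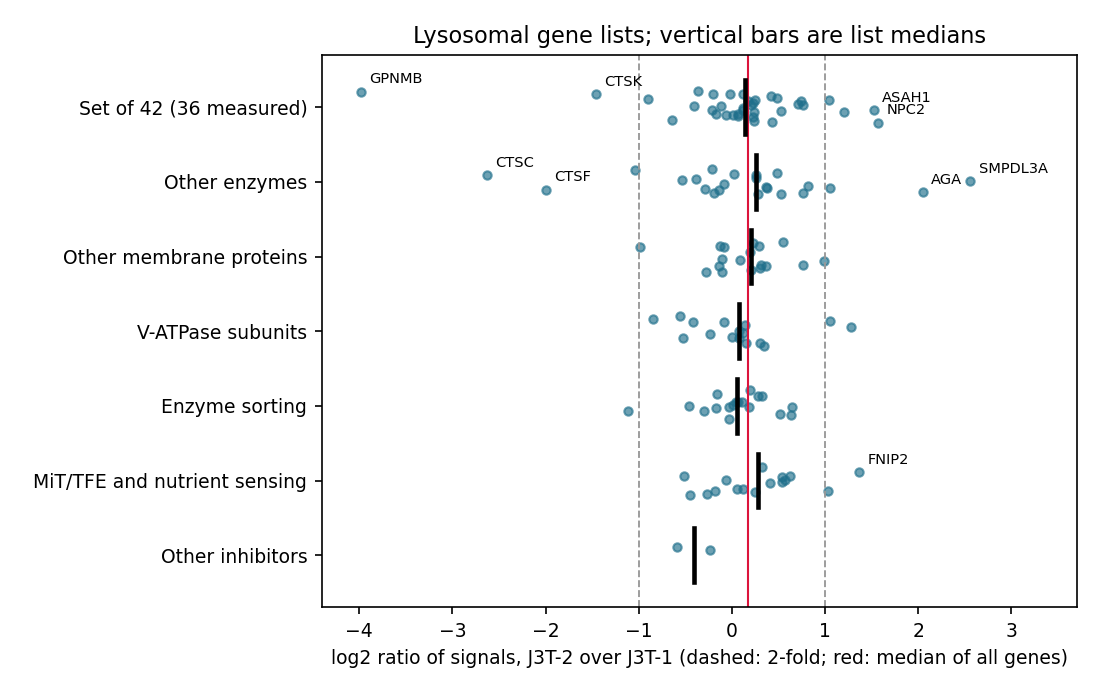
Log2 ratio of J3T-2 over J3T-1 for the 36 measured genes of the set and for the measured genes of 6 further lysosomal lists, 1 point a gene with vertical scatter for legibility only, black bars at list medians, a red line at 0.17 for all genes and dashed lines at 2-fold. Medians other than that of the inhibitors (2 genes, -0.41) lie between 0.06 and 0.28, and CTSC, CTSF, AGA and SMPDL3A are the points farthest out after GPNMB.

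Lysosomal genes are abundant in macrophages, osteoclasts and pigment cells, so markers of these cells were read on the same arrays. Of 16 macrophage and microglia markers, 15 had a probe set and 12 were at the floor on both arrays, among them PTPRC, CSF1R, ITGAM, CD14 and TYROBP. C1QA had signals of 57.3 and 54.4, and TREM2 and MRC1 were near the floor. Over 1 probe set a gene, the summed signal of the list was 154.1 and 156.8. Sums here and below add different probes and include signals under the floor, so they are not read as amounts of a cell type. Of 12 pigment cell genes, 7 were at the floor on both arrays, TYR, TYRP1, DCT and MLANA among them, and the sums were 501.3 and 601.8. PMEL had 189.7 and 260.9, RAB27A 106.3 and 205.4, and SLC45A2 46.1 and 22.3 (2.07-fold higher in J3T-1). Of 9 osteoclast genes, 7 had a probe set and 5 were at the floor on both arrays, including the calcitonin receptor gene CALCR. The sums were 123.7 and 508.4, and the integrin subunit gene ITGB3, which many other cells make, supplied 68.4 and 445.9 of them.

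The glial label was checked in the same way. Of 12 glial genes, 10 had a probe set, with none under the symbols OLIG1 and OLIG2. At the floor on both arrays were 3 of them: GFAP, the astrocyte filament gene, S100B and AQP4. SOX2 had signals of 411.1 and 1191.0, NES 55.3 and 69.3, and VIM 8129.9 and 7960.8. By the 2-fold rule 5 of the 7 measured glial genes lay towards J3T-2 and 0 towards J3T-1, where 7.37% and 3.5% of all genes did, and 4 once centred on the median of all genes. Besides SOX2 these were FABP7, under the floor in J3T-1 (at least 4.51-fold), SLC1A3 (3.11-fold), PDGFRA (2.26-fold) and SOX9, the gene that centring takes under 2-fold. The list had sums of 9481.5 and 11926.7, of which VIM alone supplied 8129.9 and 7960.8. Of 8 fibroblast genes, 6 were measured. COL1A1 and THY1 were past 2-fold towards J3T-2 (2 genes), and FAP, under the floor in J3T-2, was past it the other way (1 gene). The sums were 7902.9 and 9216.1, mostly from LUM (4131.1 and 2559.1) and COL1A2 (3356.0 and 5736.0). In bulk RNA, fewer cells of a kind and less RNA per cell cannot be told apart.

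**Figure D5:**
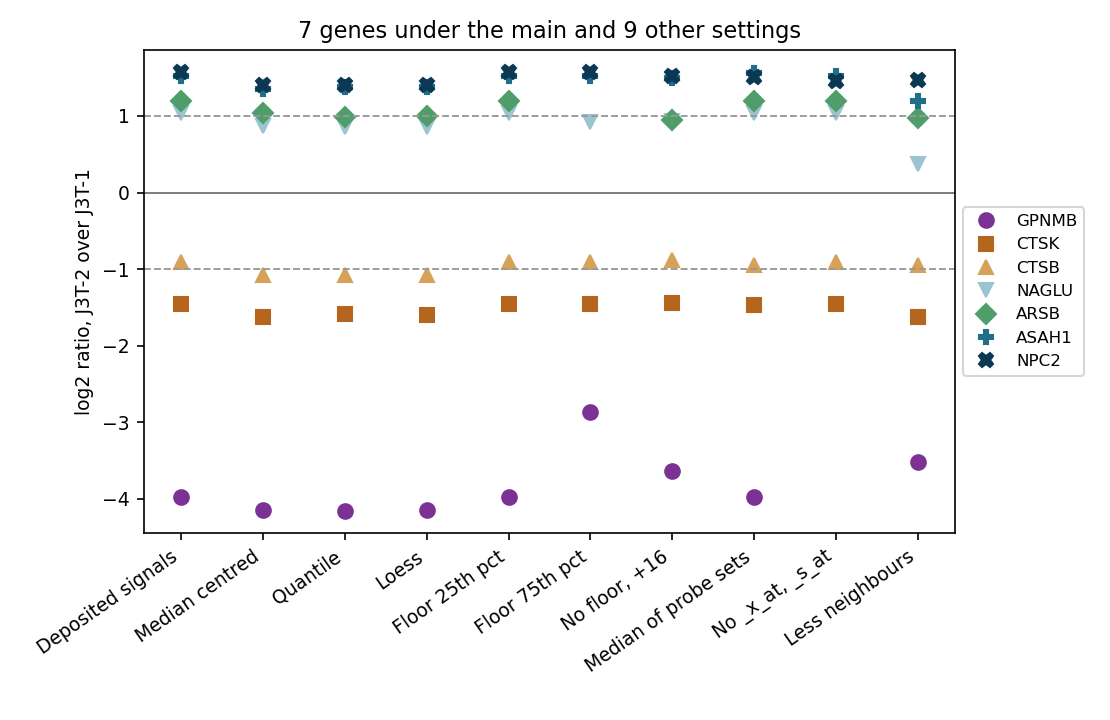
Log2 ratio of J3T-2 over J3T-1 of 7 genes (vertical) under the main setting and 9 other settings (horizontal), with dashed lines at 2-fold. GPNMB, CTSK, NPC2 and ASAH1 stay beyond the lines wherever they are measured, while CTSB, ARSB and NAGLU cross them. GPNMB has no point without _x_at and _s_at probe sets, and its value with the floor at the 75th percentile is a bound.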

How the data were processed

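The deposited values are linear intensities, 1 signal for each probe set of an array, made by the authors with MAS5 per the submitters' processing notes. Its version and scaling target are not stated in the sources at hand, no detection calls were used, and MAS5 values near background are noisy. Of 43035 probe sets, 111 controls were left out, and 29254 probe sets with 1 gene symbol named 15115 genes. Signals below each array's median were set to it, each gene was represented by its brightest probe set (mean log2 signal after the floor), and 9468 genes were measured, 8251 above the floor on both arrays. Log2 ratios are J3T-2 over J3T-1 without further scaling. With 1 array at the floor a fold is a lower bound. For genes outside the 42, the probe sets spoken of are those above the floor on at least 1 array. Without replicates the size rule of 2-fold replaces a test. All 42 genes are named, and of other lists those past 2-fold, at most 4 a list, with TFE3, MITF and TFEC; genes named beyond that rule either give context or complete a count, and were chosen after values were seen. The genes and lists were chosen with earlier results of these data known. Values were recomputed under 8 other settings of scaling, floor and probe set choice, and under 1 more chosen after seeing the data. Tools were pandas 2.3.3 and numpy 2.4.6 under Python 3.11.15, with statsmodels 0.14.6 for loess and matplotlib 3.10.9 for plots.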

Additional observations from a re-analysis of the deposited data

How the results depend on the processing

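No paired analysis was possible because each subclone has 1 array. GPNMB and CTSK kept a difference of at least 2-fold towards J3T-1, and NPC2 and ASAH1 towards J3T-2, under each alternative that measured them. GPNMB has no value without _x_at and _s_at probe sets. That left 1 of 26 measured genes of the set (CTSK) 2-fold higher in J3T-1, against 3.37% of all genes. GPNMB ranged from -2.87 (a bound, with the floor at the 75th percentile) to -4.16 in log2. The count of genes 2-fold higher in J3T-2 was 2 under quantile normalization, loess, the floor at the 75th percentile, no floor with a pseudocount of 16, and relative to neighbouring genes, a setting chosen after seeing the data. Under those 5 settings ARSB and NAGLU fell under 2-fold or, for ARSB at the higher floor, were not measured. In the same order, 36, 36, 24, 39 and 33 genes of the set were measured. Of all measured genes, 4.69%, 4.57%, 5.08%, 3.61% and 4.78% passed towards J3T-2. Quantile normalization and loess each gave 3 of 36 towards J3T-1 (CTSB, CTSK and GPNMB), against 4.97% and 5.0% of all genes. The median of the set turned to -0.022 when centred, -0.043 under quantile normalization, -0.047 under loess and -0.14 relative to neighbours. Lipid handling likewise turned to -0.048 when centred, -0.045 under quantile normalization and -0.046 under loess; glycosidases and sulfatases to -0.027, -0.028 and -0.15 under quantile normalization, loess and relative to neighbours; membrane proteins to -0.13 relative to neighbours. With the floor at the 75th percentile peptidases moved to -0.56, where fewer genes were measured, and glycosidases and sulfatases to 0.73 without _x_at and _s_at probe sets, where fewer probe sets were left. Of 299 values of single genes under the alternatives, 276 moved by less than 0.26 in log2, the SD between probe sets over all genes. Part of this count was fixed in advance. Centring moves every gene by the same 0.17, and the lower floor or another probe set choice leaves many genes as they were. The count is therefore not read as a measure of stability. Signals near the floor limit LIPA, CD68, ARSA, MAN2B1, SGSH and, on the J3T-1 array, ARSB.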
